A study of Mus musculus with 6 samples.

Results

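The 9 genes described here make, store, bind and remove retinoic acid, and were taken by their symbols from a table of 18180 genes measured in mouse tail skin. They are the retinol acyltransferase Lrat, the retinol dehydrogenases Rdh10 and Dhrs9, the retinaldehyde dehydrogenases Aldh1a1, Aldh1a2 and Aldh1a3, the binding proteins Crabp1 and Crabp2, and the hydroxylase Cyp26b1. All 9 were found, and all 9 passed the low-count filter. RNA-seq libraries came from 2 genotypes, with 3 libraries each. The libraries labelled cKO came from Mettl3fl/fl;K14creERT2+/- mice, in which a tamoxifen-activated Cre driven by the keratin 14 promoter acts in basal keratinocytes and their descendants. The control libraries came from Mettl3fl/fl;K14creERT2-/- mice, which carry the same floxed alleles without the Cre. The Mettl3 protein is the catalytic part of the complex that places N6-methyladenosine on RNA. Per the series' design text, tamoxifen was given on 5 consecutive days and tail skin was taken 4 weeks later, from areas with spontaneous inflammation in the Cre genotype and from normal tails in controls. Genotype and inflammation therefore cannot be told apart. Dermal, vascular and immune cells of the skin lie outside the reach of this Cre. The labels give neither the age of the animals nor whether each library is a separate animal.

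Vitamin A reaches skin as retinol, which cells store as retinyl ester or oxidise in 2 steps, first to retinaldehyde and then to retinoic acid. Retinoic acid binds nuclear receptors that switch genes on, and enzymes of the CYP26 family break it down, so that its level depends on synthesis and removal together. In skin, retinoids are known to govern keratinisation, the sebaceous gland and the hair cycle.

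Promoter sequence was matched in RefSeq's table for 6 of the 9 genes, Aldh1a1, Aldh1a2, Crabp1, Cyp26b1, Lrat and Dhrs9. The 250 bases before the start site are shown for Lrat and Dhrs9, which were higher in the libraries labelled cKO, and for Cyp26b1, which was lower, since the report turns on these changes. They were chosen after the expression values were seen. Capitals mark the retinoid receptor half-sites on either strand, namely the consensus AGGTCA, a variant written AGTTCA, another written GGGTCA and the last written GGTTCA.
Lrat, GRCm38.p6, chr3:82903975-82904224, minus strand: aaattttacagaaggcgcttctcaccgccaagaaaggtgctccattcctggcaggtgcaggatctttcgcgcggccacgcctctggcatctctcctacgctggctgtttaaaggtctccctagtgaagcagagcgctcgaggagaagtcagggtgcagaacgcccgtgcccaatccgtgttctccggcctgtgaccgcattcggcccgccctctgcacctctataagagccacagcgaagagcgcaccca
Dhrs9, GRCm38.p6, chr2:69380212-69380461, plus strand: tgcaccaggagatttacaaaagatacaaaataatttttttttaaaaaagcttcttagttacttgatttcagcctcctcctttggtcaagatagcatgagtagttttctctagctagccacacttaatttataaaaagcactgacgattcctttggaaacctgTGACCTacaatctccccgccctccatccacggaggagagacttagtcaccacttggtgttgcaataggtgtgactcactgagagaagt
Cyp26b1, GRCm38.p6, chr6:84593811-84594060, minus strand: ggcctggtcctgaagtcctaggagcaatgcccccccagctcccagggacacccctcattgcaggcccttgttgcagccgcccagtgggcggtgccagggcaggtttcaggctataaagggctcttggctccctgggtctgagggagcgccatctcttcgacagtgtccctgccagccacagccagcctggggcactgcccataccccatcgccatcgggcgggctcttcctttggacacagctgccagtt
The Dhrs9 window held 1 half-site, AGGTCA on the minus strand, 88 to 83 bases before the start. The windows of Lrat and Cyp26b1 held none. Of the windows not shown, 1 of the 2 for Aldh1a1, which was lower, held GGGTCA on the minus strand, 49 to 44 bases before the start, and those of Aldh1a2 and Crabp1 held none. At least 1 of the 4 half-sites occurred in 38.6% of 32851 promoter windows of the same length. A direct repeat of AGGTCA occurred in none of the 7 windows of the 6 genes. Over all windows, the repeat with a spacer of 1 base, AGGTCANAGGTCA, occurred in 0.0335%, that with a spacer of 2 bases, AGGTCANNAGGTCA, in 0.00913%, and that with a spacer of 5 bases, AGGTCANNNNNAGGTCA, in 0.00913%. A match or its absence describes the letters of these windows only.

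Totals ran from 35855880 to 36113956 counts in the libraries labelled cKO and from 36115822 to 37043849 counts in control libraries. The targeted gene, Mettl3, had 569, 512 and 540 counts in the libraries labelled cKO and 440, 389 and 337 counts in control libraries. The libraries labelled cKO thus held more Mettl3 counts, by 0.48 on the log2 scale (SE 0.11, adjusted p = 0.000102 by edgeR's quasi-likelihood test). A loss of the whole transcript would give fewer. The counts cover the whole gene, and the floxed exons were not separated, so these counts neither bear out nor contradict the label. Between libraries of a group, the variance of the counts was 3.83 to 4.12 times the mean in every class of genes from 5 to 30000 mean counts, with no steady rise with the level. A spread proportional to a gene's level, as between separate animals, would make that ratio grow with the count. P-values therefore rest on a spread between libraries that may be technical and need not include that between animals. For that reason the calls of the 9 genes, Mettl3, Aldh1a7 and the receptor genes, and the counts over each list, are also set against a likelihood ratio test in which the BCV (biological coefficient of variation, the relative spread of true levels between replicates) is assumed to be 20% or 40%. The call of Mettl3 did not hold at either (adjusted p = 0.15 at 20% and 0.948 at 40%). For genes of low counts, either assumption allows less spread than the measured 3.83 to 4.12 times the mean, and their passes are no stricter check.

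Across all genes, 61.4% of the 15061 tested were called at an adjusted p under 0.05. The libraries labelled cKO were higher in 30.8% and lower in 30.6%. Of the 9 retinoic acid genes, 8 were called, 5 of them higher (Aldh1a3, Lrat, Dhrs9, Crabp2 and Crabp1) and 3 lower (Cyp26b1, Aldh1a1 and Aldh1a2). Rdh10 did not pass. Aldh1a3 and Lrat rose by at least 2-fold, as 5.98% of all tested genes did, and Aldh1a2 fell by at least 2-fold, as 4.79% did. The groups did not overlap in 7 of the 9 genes, beside 64.9% of all genes tested. The median log2 fold change was 0.29 over the 9 genes and 0.0021 over all genes tested. The former is the value of Crabp1, which did not pass at an assumed BCV of 20% (adjusted p = 0.433 by the likelihood ratio test), so it carries little weight. With an assumed BCV of 20%, 5 of the 9 passed, Aldh1a3, Lrat, Dhrs9, Cyp26b1 and Aldh1a2, beside 22.3% of all genes. The pass of Aldh1a2 adds no support, since at its low counts this test allowed less spread than was measured. Its adjusted p was 0.000888 by this likelihood ratio test, against 0.0277 by edgeR's quasi-likelihood test. With 40%, Aldh1a3 and Lrat passed, beside 5.14% of all genes. In bulk tissue, fewer cells of a type and less RNA per cell cannot be told apart.

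**Figure D1:**
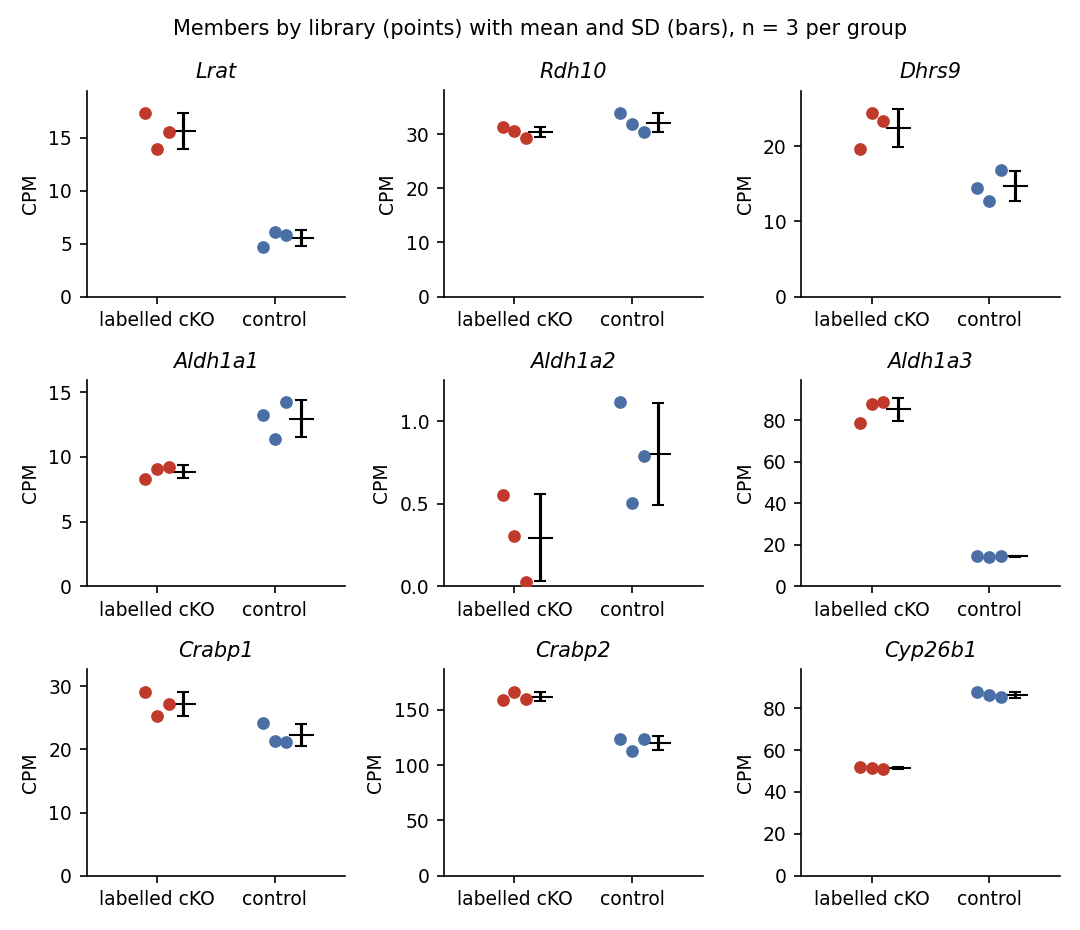
Level of each of the 9 genes in CPM (counts per 1e+06, linear axes from 0) in the 3 libraries labelled cKO and the 3 control libraries, with the group mean and SD beside the points. Aldh1a3 and Lrat stand far above control, Cyp26b1 and Aldh1a1 below it, and the points of Rdh10 and Aldh1a2 overlap between groups.

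Storage came first in the pathway and showed one of the larger rises. Lrat (NCBI gene 79235) joins retinol to a fatty acid taken from lecithin and so makes the retinyl ester that cells store. It had 17.4, 14.0 and 15.5 CPM (counts per 1e+06 of the scaled library) in the libraries labelled cKO, against 4.69, 6.11 and 5.85 CPM in control libraries. All libraries labelled cKO lay above all controls. Lrat was 2.82-fold higher (15.6 ± 1.72 CPM in the libraries labelled cKO against 5.55 ± 0.76 CPM in control, SD, n = 3 each; log2 fold change 1.49, SE 0.12, adjusted p = 1.43e-17 by edgeR's quasi-likelihood test). The call held with an assumed BCV of 20% and of 40% (adjusted p = 5.16e-08 and 0.0429). On the log2(FPKM + 1) scale, which compresses low genes, the difference was 0.96.

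The first oxidation step split. Dhrs9 (NCBI gene 241452), a short-chain dehydrogenase whose human counterpart oxidises retinol and also certain steroids, had 19.6, 24.5 and 23.3 CPM in the libraries labelled cKO, against 14.5, 12.8 and 16.8 CPM in control libraries. The groups did not overlap, although the gap between the nearest libraries was small. Dhrs9 rose 1.53-fold (log2 fold change 0.61, SE 0.095, adjusted p = 4.70e-08 by edgeR's quasi-likelihood test), with an adjusted p of 0.049 at an assumed BCV of 20% and 0.821 at 40%. Rdh10 (NCBI gene 98711), the main retinol dehydrogenase of the mouse embryo, had 31.3, 30.5 and 29.4 CPM in the libraries labelled cKO, against 34.0, 31.8 and 30.4 CPM in control libraries. Its groups overlapped. Its log2 fold change was -0.08 (95% interval -0.21 to 0.06, adjusted p = 0.316 by edgeR's quasi-likelihood test), an interval that leaves room for a small change either way.

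The second, irreversible step showed the largest change of the 9 genes, in 1 of 3 isoenzymes. Aldh1a3 (NCBI gene 56847), which oxidises all-trans-retinaldehyde to retinoic acid, had 2841, 3192 and 3226 counts in the libraries labelled cKO, against 525, 511 and 542 counts in control libraries. These are 78.7, 87.9 and 88.6 CPM in the libraries labelled cKO, against 14.3, 14.3 and 14.8 CPM in control libraries, so that the lowest library labelled cKO lay far above the highest control. Aldh1a3 rose 5.89-fold (log2 fold change 2.56, SE 0.060, adjusted p = 5.95e-50 by edgeR's quasi-likelihood test), and its call held at an assumed BCV of 20% and 40% (adjusted p = 3.44e-22 and 2.23e-05).

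Aldh1a1 (NCBI gene 11668), an isoenzyme with a wide tissue range, went the other way. It had 8.31, 9.03 and 9.23 CPM in the libraries labelled cKO, against 13.2, 11.4 and 14.2 CPM in control libraries, without overlap. The fall was 1.46-fold (log2 fold change -0.55, SE 0.12, adjusted p = 3.74e-05 by edgeR's quasi-likelihood test) and did not pass at an assumed BCV of 20% (adjusted p = 0.0912). Aldh1a7, a close paralogue whose reads the counting could have shared with Aldh1a1, was named after its values were seen and also fell, to 2.56 ± 0.402 CPM in the libraries labelled cKO against 4.90 ± 0.232 CPM in control (SD, n = 3 each; log2 fold change -0.94, SE 0.20, adjusted p = 4.58e-05 by edgeR's quasi-likelihood test). Its call held at an assumed BCV of 20% (adjusted p = 0.00251) but not at 40% (adjusted p = 0.43).

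Aldh1a2 (NCBI gene 19378), the isoenzyme that supplies most retinoic acid to the early embryo, was barely detected. It had 20, 11 and 1 counts in the libraries labelled cKO, against 41, 18 and 29 counts in control libraries, and the groups overlapped. Its log2 fold change was -1.44 (SE 0.58, adjusted p = 0.0277 by edgeR's quasi-likelihood test). The call did not hold with DESeq2 (adjusted p = 0.0620) or without any one of 4 of the 6 libraries, with adjusted p of 0.0640, 0.216, 0.166 and 0.0621 without replicates 2 and 3 labelled cKO and control replicates 1 and 3. Without replicate 3 labelled cKO, the library with 1 count, the log2 fold change was -0.90.

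Levels of different genes were set side by side as FPKM (fragments per 1e+06 counted and per kilobase of gene). The 3 isoenzymes together had 26.7, 29.7 and 29.8 FPKM in the libraries labelled cKO, against 9.66, 8.70 and 10.05 FPKM in control libraries. Aldh1a3 held 87.7% ± 0.479 of that sum in the libraries labelled cKO and 44.6% ± 2.77 in control libraries (SD, n = 3 each). Aldh1a1 held 11.9% ± 0.122 in the libraries labelled cKO and 51.7% ± 2.01 in control, and Aldh1a2 held 0.472% ± 0.44 in the libraries labelled cKO and 3.68% ± 1.28 in control. In none of the 3 shares did the groups overlap. The shares are parts of the same sum, so they are not separate results, and a rise of Aldh1a3 alone lowers the other shares. By its own FPKM, Aldh1a2 did overlap, with 0.246 in replicate 1 labelled cKO and 0.220 in control replicate 2. Each difference in share had p = 0.1 by a two-sided exact permutation test, the smallest that 3 against 3 libraries can give. By FPKM, the most abundant isoenzyme transcript was thus Aldh1a3 in each library labelled cKO and Aldh1a1 in each control. There were 7.39 ± 0.101 FPKM of Aldh1a3 per FPKM of Aldh1a1 in the libraries labelled cKO and 0.865 ± 0.0863 in control (SD, n = 3 each). By CPM, which ignores length, Aldh1a3 lay above Aldh1a1 in each control too (14.3, 14.3 and 14.8 against 13.2, 11.4 and 14.2 CPM). The order in control therefore rests on the lengths behind the FPKM, 3401 bp for Aldh1a3 and 2619 bp for Aldh1a1.

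**Figure D2:**
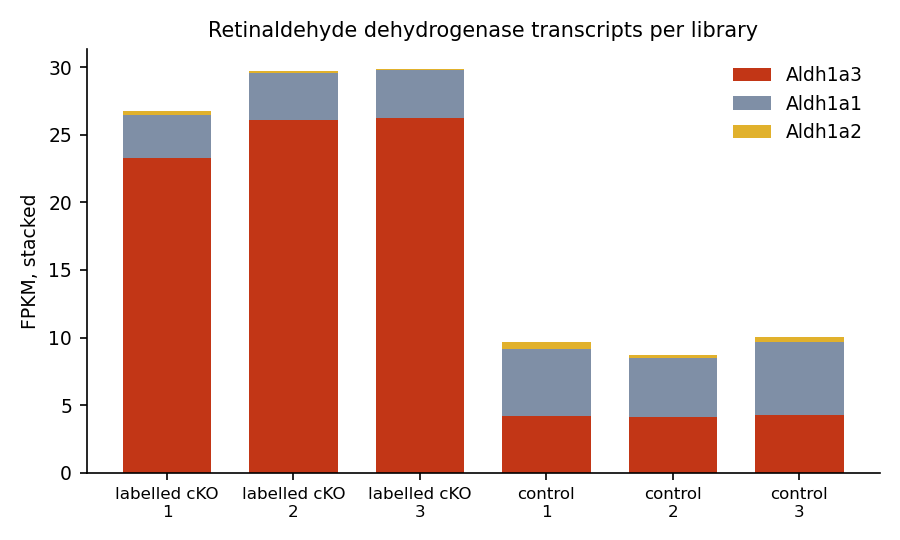
FPKM of Aldh1a3, Aldh1a1 and Aldh1a2 stacked for each library, those labelled cKO on the left and controls on the right. The sums of 26.7 to 29.8 FPKM in the libraries labelled cKO are mostly Aldh1a3, while in controls Aldh1a3 and Aldh1a1 take similar parts of 8.70 to 10.05 FPKM.

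Both binding proteins, small carriers that hold retinoic acid in the cytosol, rose by small factors. Crabp2 (NCBI gene 12904), which delivers retinoic acid to its nuclear receptor, had 159, 166 and 159.9 CPM in the libraries labelled cKO, against 123, 112 and 124 CPM in control libraries, without overlap. Its rise was 1.35-fold (log2 fold change 0.43, SE 0.033, adjusted p = 1.68e-19 by edgeR's quasi-likelihood test). Crabp1 (NCBI gene 12903), whose binding favours breakdown of the ligand, had 29.2, 25.3 and 27.2 CPM in the libraries labelled cKO, against 24.2, 21.3 and 21.2 CPM in control libraries. Its groups lay close but apart, with a rise of 1.22-fold (log2 fold change 0.29, SE 0.078, adjusted p = 0.000833 by edgeR's quasi-likelihood test). Neither passed at an assumed BCV of 20% (adjusted p = 0.194 for Crabp2 and 0.433 for Crabp1). The ratio of Crabp2 to Crabp1 FPKM was 4.85, 5.86 and 5.23 in the libraries labelled cKO, against 4.53, 4.71 and 5.20 in control libraries. These ratios overlapped, and their log2 values differed by 0.14 (p = 0.2, two-sided exact permutation test).

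Cyp26b1 (NCBI gene 232174), a cytochrome P450 that hydroxylates retinoic acid for removal, fell. It had 51.7, 51.4 and 51.0 CPM in the libraries labelled cKO, against 88.0, 86.2 and 85.2 CPM in control libraries. The libraries within each group lay close together and the groups far apart. The fall was 1.68-fold (log2 fold change -0.75, SE 0.045, adjusted p = 6.59e-25 by edgeR's quasi-likelihood test) and passed at an assumed BCV of 20% (adjusted p = 0.00998) but not at 40% (adjusted p = 0.63). Summed FPKM of the 3 Aldh1a genes per FPKM of Cyp26b1 was 6.93 ± 0.457 in the libraries labelled cKO and 1.38 ± 0.106 in control (SD, n = 3 each; p = 0.1, the smallest the exact permutation test allows). These are transcript ratios per length, with 12481 bp behind the FPKM of Cyp26b1 and 2264 to 3401 bp behind those of the Aldh1a genes. By mean CPM, which ignores length, Cyp26b1 lay above each Aldh1a gene in control. No retinoid was measured.

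**Figure D3:**
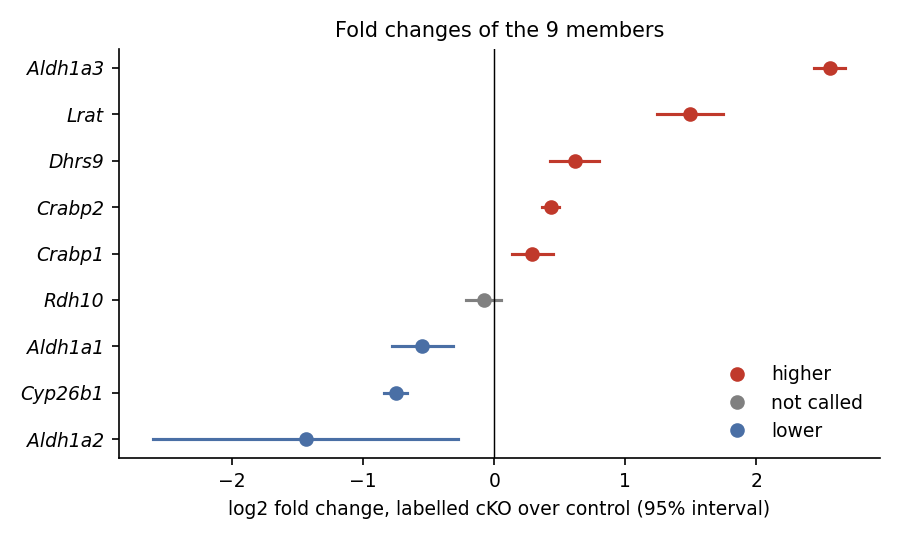
Log2 fold change of each of the 9 genes, libraries labelled cKO over control, with the 95% interval of the fit as a line. Aldh1a3 lies highest at 2.56 and Aldh1a2 lowest at -1.44 with the widest interval, and the interval of Rdh10 spans 0.

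By FPKM, the order of the 9 genes differed in the middle ranks. In the libraries labelled cKO it was Crabp2 (181 ± 4.79 FPKM), Crabp1 (34.2 ± 2.40), Aldh1a3 (25.2 ± 1.66), Rdh10 (13.3 ± 0.421), Dhrs9 (8.03 ± 0.911), Cyp26b1 (4.15 ± 0.0289), Aldh1a1 (3.41 ± 0.189), Lrat (2.95 ± 0.321) and Aldh1a2 (0.131 ± 0.117 FPKM). In control libraries it was Crabp2 (132 ± 6.95 FPKM), Crabp1 (27.5 ± 2.13), Rdh10 (13.9 ± 0.757), Cyp26b1 (6.87 ± 0.105), Dhrs9 (5.17 ± 0.711), Aldh1a1 (4.91 ± 0.542), Aldh1a3 (4.21 ± 0.0825), Lrat (1.03 ± 0.142) and Aldh1a2 (0.352 ± 0.134 FPKM). Neighbours overlapped between libraries for Aldh1a1 and Lrat in the libraries labelled cKO and for Dhrs9 and Aldh1a1 in control. Aldh1a3 stood at rank 3 in the libraries labelled cKO and at rank 7 in control. The lengths behind these FPKM ran from 802 bp for Crabp1 to 12481 bp for Cyp26b1.

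Around these 9 genes, a list of 39 further vitamin A genes showed mostly lower levels in the libraries labelled cKO. Of 35 tested, 4 rose and 20 fell (median log2 fold change -0.37), beside 30.8% higher and 30.6% lower among all genes tested. Among carriers, the cellular retinol binding protein gene Rbp2 rose 5.47-fold (133 ± 4.98 CPM in the libraries labelled cKO against 24.3 ± 2.72 CPM in control). The gene of the plasma carrier Rbp4 fell 2.28-fold (3.23 ± 0.803 CPM in the libraries labelled cKO against 7.39 ± 1.69 CPM in control), and 2 others of the 5 tested in this step, Stra6 and Rbp7, fell less.

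Enzymes of ester turnover other than Lrat had none higher and 4 of 5 lower. The counts of calls by step given here stand beside 30.8% higher and 30.6% lower among all genes tested. Dgat1, an acyltransferase that can also esterify retinol, fell 1.86-fold, the lipase gene Lipe 1.56-fold and the carboxylesterase gene Ces1d 3.03-fold (9.43 ± 1.38 CPM in the libraries labelled cKO against 28.5 ± 3.75 CPM in control). Retinol-oxidising enzymes other than Rdh10 and Dhrs9 had none higher and 6 of 7 lower. The alcohol dehydrogenase gene Adh1 fell 3.54-fold (46.3 ± 1.69 CPM in the libraries labelled cKO against 164 ± 7.65 CPM in control), Sdr16c6 fell 2.20-fold (308 ± 3.17 CPM in the libraries labelled cKO against 678 ± 3.74 CPM in control), and Rdh1, Rdh16 and Adh7 fell 1.81-fold, 1.79-fold and 1.75-fold. Rdh1 and Rdh16 have close relatives whose reads could have been shared. Of 6 enzymes that reduce retinaldehyde back to retinol, 3 fell and none rose, with Rdh11 at 2.34-fold lower (103 ± 3.24 CPM in the libraries labelled cKO against 240.0 ± 8.18 CPM in control). Bco1, the carotene cleavage enzyme gene, was low, with 25, 9 and 7 counts in the libraries labelled cKO against 46, 45 and 26 counts in control libraries (log2 fold change -1.50, SE 0.51, adjusted p = 0.00906 by edgeR's quasi-likelihood test). Its adjusted p was 0.0524 and 0.0711 without replicate 2 or 3 labelled cKO. Of the other carotenoid genes, Scarb1 rose 1.22-fold, to 46.5 ± 0.921 CPM in the libraries labelled cKO against 38.2 ± 3.46 CPM in control (adjusted p = 2.62e-05 by edgeR's quasi-likelihood test). Bco2 did not pass (adjusted p = 0.809 by the same test). At an assumed BCV of 40%, the pathway genes that passed were Rbp2, Ces1d, Adh1 and Fabp5, beside 5.14% of all genes.

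**Figure D4:**
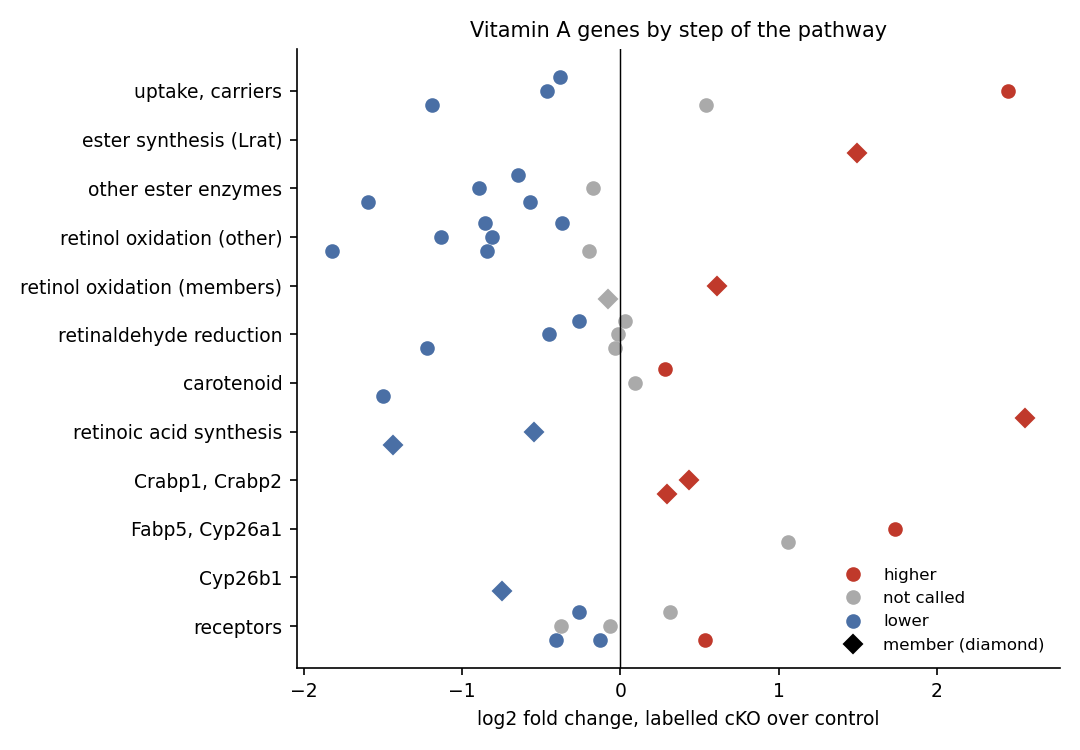
Log2 fold change of each tested vitamin A gene, libraries labelled cKO over control, grouped by step of the pathway, with the 9 genes described here as diamonds and other genes as circles. Other genes of ester turnover and retinol oxidation lie at or left of 0, while Lrat (1.49), Aldh1a3 (2.56) and the carrier Rbp2 (2.45) lie to the right.

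Fabp5, a lipid carrier that can pass retinoic acid to the nuclear receptor encoded by Ppard, was by far more counted than either Crabp gene. It rose 3.34-fold, to 4601 ± 31.0 CPM in the libraries labelled cKO against 1379 ± 1.25 CPM in control (SD, n = 3 each). Per length, Fabp5 had 4866 ± 34.4 FPKM in the libraries labelled cKO and 1435 ± 0.112 FPKM in control. Both SDs of Fabp5 in control lie below the counting error of its 50668, 49391 and 50613 counts, and do not measure a spread between animals. Ppard itself rose 1.45-fold (log2 fold change 0.53, SE 0.054, adjusted p = 6.66e-14 by edgeR's quasi-likelihood test). Of the other 6 receptor genes, Rarg, Rxra and Rxrb fell by 0.26, 0.13 and 0.41 on the log2 scale, and none passed as higher. Rarg, the main retinoic acid receptor of epidermis, was at 123 ± 5.02 CPM in the libraries labelled cKO and 147 ± 1.80 CPM in control. None of the 4 called receptor genes passed at an assumed BCV of 20% (adjusted p from 0.0929 for Ppard to 0.77 for Rxra). Rara had a log2 fold change of -0.07 (adjusted p = 0.57), and Rarb and Rxrg, at 0.331 ± 0.24 and 0.854 ± 0.31 CPM in the libraries labelled cKO and 0.267 ± 0.161 and 1.11 ± 0.344 CPM in control, did not pass (adjusted p = 0.715 and 0.463 by the same edgeR test). Cyp26a1, the other main hydroxylase gene of the family, had 13, 10 and 19 counts in the libraries labelled cKO against 5, 11 and 4 counts in control libraries, too few to show a difference (adjusted p = 0.187). Cyp26c1 had 5 counts over the libraries labelled cKO and 1 over control libraries and was not tested.

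Genes known to respond to retinoic acid in other settings moved both ways. Of a list of 13, 5 rose and 6 fell (median log2 fold change 0.31), beside 30.8% higher and 30.6% lower among all genes tested. That median is the value of Rarb, a gene of few counts that did not pass (adjusted p = 0.715 by edgeR's quasi-likelihood test), so its sign carries little weight. Among the 13, 4 also stand in the pathway list. The mucosal keratin genes Krt13 and Krt4 rose, Krt13 with 58, 42 and 67 counts in the libraries labelled cKO against 6, 2 and 2 counts in control libraries (log2 fold change 4.02, SE 0.59) and Krt4 by 5.83-fold (4.28 ± 0.49 CPM in the libraries labelled cKO against 0.731 ± 0.178 CPM in control). Hbegf, a growth factor gene, rose 2.30-fold and Cd38 rose 1.78-fold. Rarres1, named for its induction by a retinoid, fell 2.28-fold (51.9 ± 1.67 CPM in the libraries labelled cKO against 119 ± 4.26 CPM in control), and Krt19 and Hoxa5 fell 2.18-fold and 1.77-fold. The called genes with smaller changes were Tgm2, which rose 1.27-fold, and Stra6, Dhrs3 and Rarres2, which fell 1.38-fold, 1.37-fold and 1.19-fold. Rarb and Cyp26a1, 2 classical direct targets, had low counts and did not pass, as given above.

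Markers of the structures of tail skin are given beside these genes, and their counts of calls stand beside 30.8% higher and 30.6% lower among all genes tested. Of 8 sebaceous gland markers, all fell, with a summed 2362 to 2393 CPM in the libraries labelled cKO and 5298 to 5358 CPM in control. Of 7 hair follicle markers, 6 fell, with 4929 to 4965 CPM in the libraries labelled cKO and 8180 to 8262 CPM in control. Of 6 keratinocyte markers, 4 rose and 2 fell, with 58982 to 59738 CPM in the libraries labelled cKO and 30469 to 30704 CPM in control. Most of that gain was Krt1, at 20492 ± 141 CPM in the libraries labelled cKO against 2170 ± 15.9 CPM in control (SD, n = 3 each). Of 7 fibroblast markers, 6 rose and 1 fell, with 16628 to 16659 CPM in the libraries labelled cKO and 11482 to 11586 CPM in control. All 7 macrophage and dendritic cell markers rose, with 198 to 206 CPM in the libraries labelled cKO and 143 to 150.3 CPM in control. Dermal papilla markers had 1 of 6 lower and none higher, with 98.9 to 101 CPM in the libraries labelled cKO and 100.3 to 115 CPM in control. Skeletal muscle markers had 1 of 5 higher and none lower, with 9.29 to 21.5 CPM in the libraries labelled cKO and 5.77 to 9.05 CPM in control. With an assumed BCV of 20%, beside 22.3% of all genes, the markers that passed were all 8 sebaceous and 5 hair follicle markers as lower, and 5 myeloid, 3 fibroblast, 3 muscle and 2 keratinocyte markers as higher. The muscle markers varied more between libraries of a group than this assumption allows. Their 3 passes, against 1 call in the main fit, therefore add no support. With 40%, beside 5.14% of all genes, 3 sebaceous markers passed as lower, and 2 myeloid and 1 keratinocyte markers as higher. No marker of these lists was at 0 in any library. The part of these cell types in the values of the 9 genes was not tested.

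Of 11438 other genes with a mean of at least 5 CPM, the 3 whose centred log2 CPM over the 6 libraries lay nearest to that of Aldh1a3 were Rnase2b, the wound keratin gene Krt6a and the cornified envelope gene Sprr1b, at root-mean-square distances of 0.069, 0.075 and 0.077 on the log2 scale. Krt6a shares near-identical sequence with Krt6b. Nearest to Aldh1a2, the called gene with the largest fall, were Frem2, Oxtr and Ccdc136, at wide distances of 0.72, 0.74 and 0.76. Nearest to Cyp26b1, a gene added to this search after its values were seen, were Afdn, the fatty acid elongation gene Tecr and Map7, at 0.013, 0.015 and 0.016. With 2 groups of 3 libraries, such likeness reflects mostly the size of the difference between the groups.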

How the data were processed

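RNA extracted with TRIzol from mouse tail skin was made into libraries with a VAHTS kit, per the labels' protocols, and 3 libraries labelled cKO were set against 3 controls by their titles. The submitters' processing notes name fastp, HISAT2, HTSeq and the genome mm39. The sources used here do not give versions, annotation, strand setting or the treatment of multiply aligned reads, so reads of antisense partners and close paralogues cannot be told apart. The authors deposited whole-number counts per gene, not normalized, and FPKM, which equalled the counts over 1 length per gene and the library total for 18180 of 18180 genes (relative tolerance 1e-06).

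The main test was that of edgeR 4.0.16 in R 4.3.3 on the counts: filterByExpr (minimum count 10, minimum total 15), TMM scaling, robust quasi-likelihood fit with group as the only term, two-sided, Benjamini-Hochberg adjustment over 15061 genes. A gene was called at an adjusted p under 0.05. Standard errors are the log2 fold change over the square root of F. A count of 3 equals 0.0810 to 0.0837 CPM, a limit for counting error only. Shares and ratios of FPKM were compared by exact permutation. Alternatives were DESeq2 1.42.0, limma 3.58.1 (voom, and log2 FPKM with pseudocounts of 1 and 0.1), other scalings and filters, an adjusted p of 0.01, a replicate block, assumed BCVs and leaving out each library. Of these steps, only the main edgeR fit was first tested on simulated counts, drawn with a variance proportional to the mean.

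The 9 genes, the lists and the tests were chosen with earlier results of these data known. Text names the 9 genes, Mettl3, every retinoid receptor, listed genes called with an absolute log2 fold change of at least 0.585, and the 3 nearest genes to the largest rise and fall. An item that had stood in the lists is not reported here and was left out of their counts. Stra6, Rbp7, Cyp26a1, Cyp26c1, Aldh1a7, Krt1, Tgm2, Dhrs3, Rarres2, Scarb1 and Bco2 were named after their values were seen. Promoter windows and their coordinates come from RefSeq on GRCm38.p6, another build than that of the deposited tables, and served for sequence only.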

Additional observations from a re-analysis of the deposited data

How the results depend on the processing

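Directions of the 9 retinoic acid genes were the same under every alternative run. Aldh1a3 and Lrat passed in all 19 alternatives, Cyp26b1 and Dhrs9 in 18, Aldh1a1, Crabp1 and Crabp2 in 17, and Aldh1a2 in 11 of the 18 that tested it. For Aldh1a2, the 7 losses include the adjusted p of 0.01. Its 11 passes include the assumed BCV of 20%, which allowed it less spread than was measured. Rdh10 passed in none. Of the alternatives, only the assumed BCVs changed a count of calls, over all genes, the 9 genes or the lists, by more than 1.5 times. An adjusted p under 0.01 gave 7911 genes in all and 7 of the 9, DESeq2 8951 and 7, and the filter of 1 CPM in 3 libraries 9027 and 7. At 20%, 3361 genes passed (1830 higher, 1531 lower), with 5 of the 9 genes (3 higher), 13 of the pathway list (2 higher, 11 lower) and 7 of the responsive list (3 of them lower). At 40%, 774 passed (458 higher, 316 lower), with 2 of the 9 (2 higher, 0 lower), 4 of the pathway list (2 higher, 2 lower) and 2 of the responsive list (2 higher, 0 lower). Leaving out each library in turn gave 8694 to 8847 genes in all and 7 to 8 of the 9. The log2 fold change of Rara then ran from -0.13 to 0.05 and that of Rarb from -0.09 to 0.89, with a value of 0.047 for Rara without control replicate 3 and of -0.091 for Rarb without replicate 3 labelled cKO, a change of sign in genes that did not pass, and the cause was not tested. With the replicate number as a block, 9212 genes and 8 of the 9 passed, against 9244 and 8 without it. Libraries with the same number did not deviate together (correlations of -0.0154, -0.0155 and -0.0577), so the numbers were not taken as pairs, and the crossed numbers correlated between -0.0359 and 0.0526. Scaling moved the median of all genes by at most 0.0291 on the log2 scale. Depth limits Aldh1a2, Rarb, Cyp26a1 and Bco1, which had under 50 counts in each library.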

Other observations

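The pathway annotation in the deposited tables holds 62 genes under retinol metabolism, a set that was examined after the other values were seen. It includes 7 of the 9 retinoic acid genes, all but Crabp1 and Crabp2, and 18 of the 39 genes of the pathway list. Of its 44 tested genes, the libraries labelled cKO had 6 higher and 25 lower (median log2 fold change -0.45), beside 30.8% and 30.6% of all genes. Without the genes already described, 22 of its genes were tested, of which 3 were higher and 12 lower (median log2 fold change -0.53).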
